A study of Homo sapiens with 6 samples.

Results

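The heat shock, DNAJ and chaperonin genes are described here in U2932, a human line established from diffuse large B cell lymphoma. They were taken by name from the deposited table: symbols starting with HSPA, HSP90 or DNAJ, symbols of HSPB, CCT or BAG followed by a digit, and HSPH1, HSPD1, HSPE1, TCP1, HSF1 and HSF2, without pseudogenes. This gave 83 of 34675 genes, of which 82 are protein-coding in the GENCODE annotation and HSPB9 had no match there. No row carried the symbols HSPA1A, HSPA1B, HSPA1L or BAG6, so these genes were not analysed here. The cells carried ShPRDM11, a hairpin that targets PRDM11 mRNA (3 samples), or the scrambled hairpin ShScramble (3 samples), and all were under puromycin for 3 days. A single hairpin per group limits both as models. The table compares conditions named A and B and names neither as the knockdown, so ratios are given as condition A over condition B, with the deposited sign turned. No label says that the samples of a group came from separate cultures, so the spread behind each p-value may be only technical.

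Heat shock proteins keep other proteins folded. HSP70 proteins bind exposed stretches of unfolded chains in a cycle driven by ATP. J domain proteins, encoded by the DNAJ genes, bring them clients and start ATP hydrolysis, and BAG and HSP110 proteins release the nucleotide so that the client is let go. HSP90 proteins act on kinases, receptors and transcription factors, among them BCL6 in diffuse large B cell lymphoma. Small HSPB proteins hold unfolding proteins without ATP, and the CCT ring folds actin and tubulin. HSF1, a transcription factor, drives the inducible genes by binding heat shock elements, which are alternating GAA and TTC units.

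The promoters of 4 members are printed because HSPA6, HSPB1 and DNAJC12 are the members that differed between the conditions, and HSPA8 is the constitutive HSP70 gene. Each line is the 250 bases before the RefSeq start in build GRCh38.p14, on the strand of the gene. Capitals mark GAA and TTC units spaced by 2 bases, searched as GAANNTTC and TTCNNGAA, which covers both strands.
HSPA6, chr1:161524290-161524539, plus strand: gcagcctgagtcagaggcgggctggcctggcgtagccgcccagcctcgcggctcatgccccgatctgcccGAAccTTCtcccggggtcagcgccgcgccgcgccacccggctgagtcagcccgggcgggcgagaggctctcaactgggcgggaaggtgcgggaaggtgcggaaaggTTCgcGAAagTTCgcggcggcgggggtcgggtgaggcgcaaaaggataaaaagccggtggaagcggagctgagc
HSPB1, chr7:76302423-76302672, plus strand: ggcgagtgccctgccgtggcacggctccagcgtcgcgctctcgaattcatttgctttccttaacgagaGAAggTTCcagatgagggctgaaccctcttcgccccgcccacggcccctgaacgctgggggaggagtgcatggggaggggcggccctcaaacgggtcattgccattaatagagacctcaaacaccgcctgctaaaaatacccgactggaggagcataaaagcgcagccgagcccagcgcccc
DNAJC12, chr10:67838189-67838438, minus strand: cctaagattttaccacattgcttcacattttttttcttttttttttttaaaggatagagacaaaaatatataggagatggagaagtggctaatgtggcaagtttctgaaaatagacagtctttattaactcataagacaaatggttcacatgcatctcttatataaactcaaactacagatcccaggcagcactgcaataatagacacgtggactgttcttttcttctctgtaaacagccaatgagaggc
HSPA8, chr11:123062137-123062386, minus strand: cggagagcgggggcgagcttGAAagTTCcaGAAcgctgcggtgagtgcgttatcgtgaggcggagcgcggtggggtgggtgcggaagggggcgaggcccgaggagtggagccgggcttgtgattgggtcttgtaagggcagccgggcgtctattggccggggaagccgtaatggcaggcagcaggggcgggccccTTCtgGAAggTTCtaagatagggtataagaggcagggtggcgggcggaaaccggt
HSPA6 holds a run of 3 units at -74 to -62 from the start and a pair at -180 to -173. HSPA8 holds a run at -230 to -218 and another at -55 to -43. HSPB1 has a pair at -182 to -175, and in the DNAJC12 window these letters were not found.

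RefSeq windows matched 72 members, with 95 windows in all. The run of 3 units (GAANNTTCNNGAA or TTCNNGAANNTTC, which contains the pair) was in 6.32% of these windows, against 0.441% of all 35116 promoter windows of the same length. The 6 members with it were HSPA6, HSPA8, HSP90AA1, HSP90AB1, HSPD1 and DNAJB6. The pair was in 21.1% of the members' windows and 11.6% of all windows. Such a match is a description of letters and not a binding site. HSPB1 and DNAJC12 were called different between the conditions without a run in their windows, and 2.54% of all genes were called. Whether a run goes with a call was not tested. Of the 6 members with a run, HSPA6 was the only one called. For the others, the authors' deposited table gave log2 ratios of 0.12 for HSP90AA1, 0.09 for HSPA8, 0.0013 for HSP90AB1, -0.12 for DNAJB6 and -0.20 for HSPD1.

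PRDM11 checks the comparison. Its libraries held 268, 272 and 323 normalised reads in condition A, against 565, 516 and 545 in condition B, and by the authors' deposited table the log2 ratio was -0.91 (DESeq adjusted p = 1.76e-08). This ratio was not used to assign the conditions. Values per library are whole reads recovered from the deposited condition means, and libraries are numbered by falling size factor within a condition. They held 24637585 to 39250214 recovered reads. The B cell markers fit the labelled cell type: PAX5 had 35652 normalised reads in condition A, against 35450 in condition B by the authors' deposited table. The markers of T cells (3 of 5 with a row) summed to 59.1 in condition A, against 55.3 in condition B, and the 4 myeloid markers to 66.2 and 53.7. The 6 epithelial and fibroblast markers summed to 1365 and 1342, most of it EPCAM. The B cell marker CD79B was higher in condition A, with a log2 ratio of 0.42 by the authors' deposited table (DESeq adjusted p = 0.0226). The B cell markers did not share a direction. Of the 8 listed, 5 had log2 ratios above 0 and 3 below 0, with a median of 0.05. CD40, among those below 0, had -0.21 by the authors' deposited table (DESeq adjusted p = 0.585). In bulk RNA, fewer cells expressing a gene and less RNA per cell cannot be told apart.

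Of the 83 members, 2 were higher and 1 was lower in condition A by the authors' deposited table, where the adjusted p had to be under 0.05. HSPA6 and HSPB1 were higher, and DNAJC12 was lower. The table called 0.966% of all genes higher and 1.57% lower, and the 3 members are 3.61% of the members, against 2.54% of all genes in either direction. The members' share is close to that of all genes, but the sets differ in level. A mean of at least 50 normalised reads was reached by 70 of the 83 members and by 13565 of the 34675 genes. By limma on the recovered reads, 4 of the 68 members tested were higher and 2 were lower, against 4.14% and 5.39% of all genes tested. At a mean of 50 normalised reads or more, 70 members had a median log2 ratio of -0.01, and all 13565 such genes one of -0.0024. Of the 70, 31 lay above 0, 39 lay below 0, and 60 were within 0.25 of 0. Summed over the members, the means were 697541 normalised reads in condition A, against 698335 in condition B. That is 1.59% of the total in condition A and 1.67% in condition B.

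**Figure D1:**
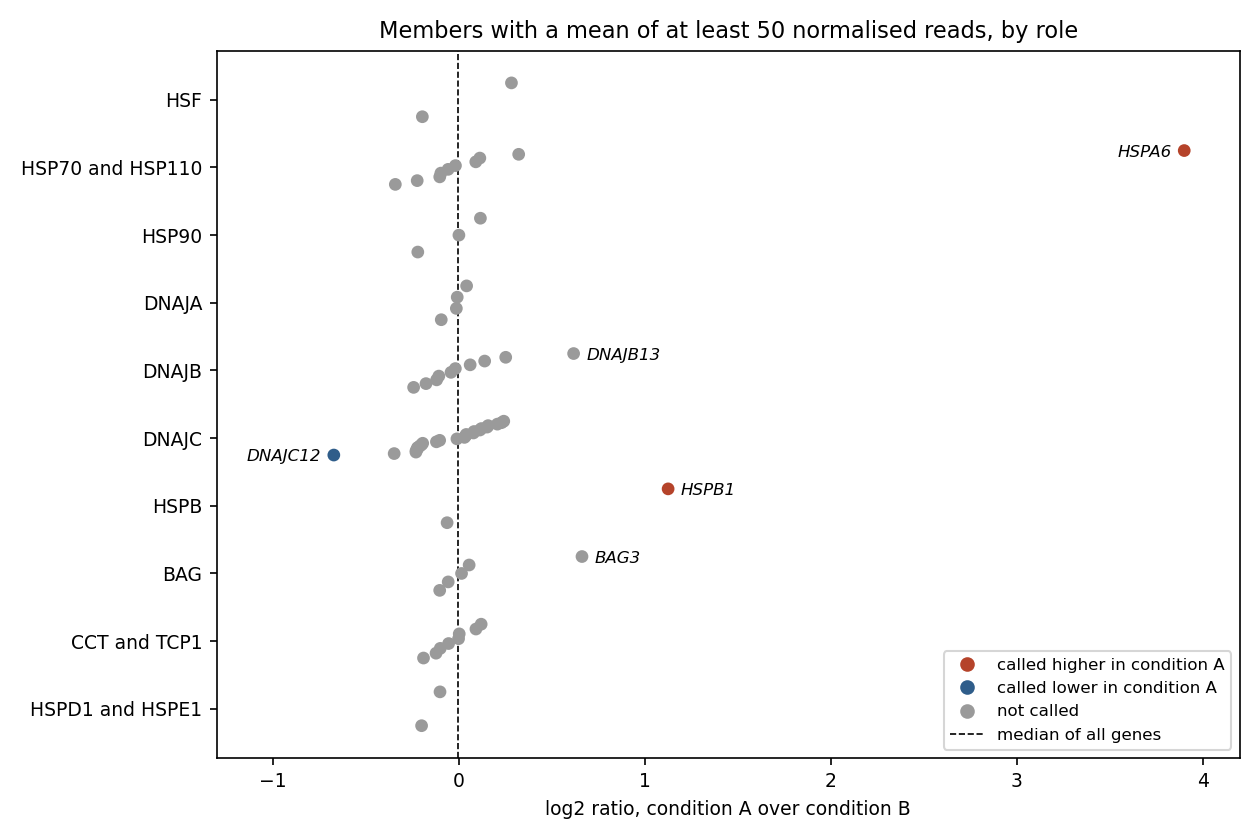
Log2 ratio of condition A over condition B for the 70 members whose mean reached 50 normalised reads, by role, each point a gene. HSPA6 at 3.90 and HSPB1 at 1.13 lie to the right, DNAJC12 at -0.67 to the left, and 60 of 70 members lie within 0.25 of 0.

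The transcription factors that drive the heat shock genes were not called. HSF1, the main stress-activated factor, held 7762, 8358 and 10306 normalised reads in condition A, against 8454, 6687 and 6565 in condition B. The groups overlapped, and its log2 ratio was 0.28 by the authors' deposited table (DESeq adjusted p = 0.905). HSF2, a relative that pairs with HSF1, held 1340, 1288 and 1324 in condition A, all below the 1442, 1466 and 1617 of condition B. Its log2 ratio was -0.20 by the authors' deposited table (DESeq adjusted p = 0.774).

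HSPA6 was the only called gene of the 12 HSP70 and HSP110 genes, and it had the highest log2 ratio of all 13565 genes with a mean of at least 50. HSPA6 had 34.5 in condition B, so it reached that mean over both conditions only through condition A. It encodes an inducible HSP70 that is very low in unstressed cells. HSPA6 (ENSG00000173110) lies on chromosome 1 from 161494449 to 161496377 in the deposited intervals, in build hg19. Its libraries held 706, 324 and 515 normalised reads in condition A, against 44.9, 23.8 and 34.7 in condition B. The libraries of condition A varied widely, but each stood above every library of condition B. The means were 515 ± 191 in condition A, against 34.5 ± 10.6 in condition B (SD, n = 3 each). The authors' deposited table gave a 14.9-fold difference, which is 3.90 on the log2 scale (DESeq adjusted p = 1.56e-06). A limma fit on the recovered reads gave 3.84 with a standard error of 0.28 (adjusted p = 0.000159). With 1 library left out, the ratio was between 3.57 and 4.14. Its close pseudogene HSPA7 was listed at 2.02 in condition A, against 0.317 in condition B by the authors' deposited table, and reads shared between the pair may be split or left out.

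The abundant HSP70 genes showed no called difference. HSPA8, the constitutive cytosolic HSP70, had 81610 normalised reads in condition A, against 76563 in condition B by the authors' deposited table. That is 0.09 as a log2 ratio. HSPA5, the HSP70 of the endoplasmic reticulum, had 30283 in condition A, against 30647 in condition B, and HSPA9, its mitochondrial relative, had 26989 in condition A, against 28959 in condition B, by the authors' deposited table. These 3 genes have no values per library. HSPA8 and HSPA5 were above a mean of 30000, where no search was made, and for HSPA9 in condition A at least 2 sets of whole reads were possible. HSPA2, an HSP70 best known from the testis, held 295, 294 and 314 normalised reads in condition A, against 244, 248 and 229 in condition B. The groups did not overlap, and the log2 ratio of 0.32 by the authors' deposited table was not called (DESeq adjusted p = 0.446). HSPH1, an HSP110 that recycles HSP70, held 15632, 13495 and 12934 in condition A, against 16897, 15824 and 16369 in condition B. Every library of condition A was below those of condition B, and by the authors' deposited table the log2 ratio was -0.22 (DESeq adjusted p = 0.621).

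Among the 5 BAG genes, which release nucleotide from HSP70, none was called in the authors' deposited table. BAG3, an inducible gene that links HSP70 to autophagy, came closest. It held 759, 702 and 963 normalised reads in condition A, against 596, 459 and 476 in condition B, and the groups did not overlap. Its log2 ratio was 0.66 by the authors' deposited table (DESeq adjusted p = 0.0611). The limma fit called it, with 0.66 and a standard error of 0.14 (adjusted p = 0.0196). With 1 library left out the limma adjusted p lay between 0.0177 and 0.0964. BAG5, a BAG protein with several BAG domains, had 5061 in condition A, against 5262 in condition B by the authors' deposited table.

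**Figure D2:**
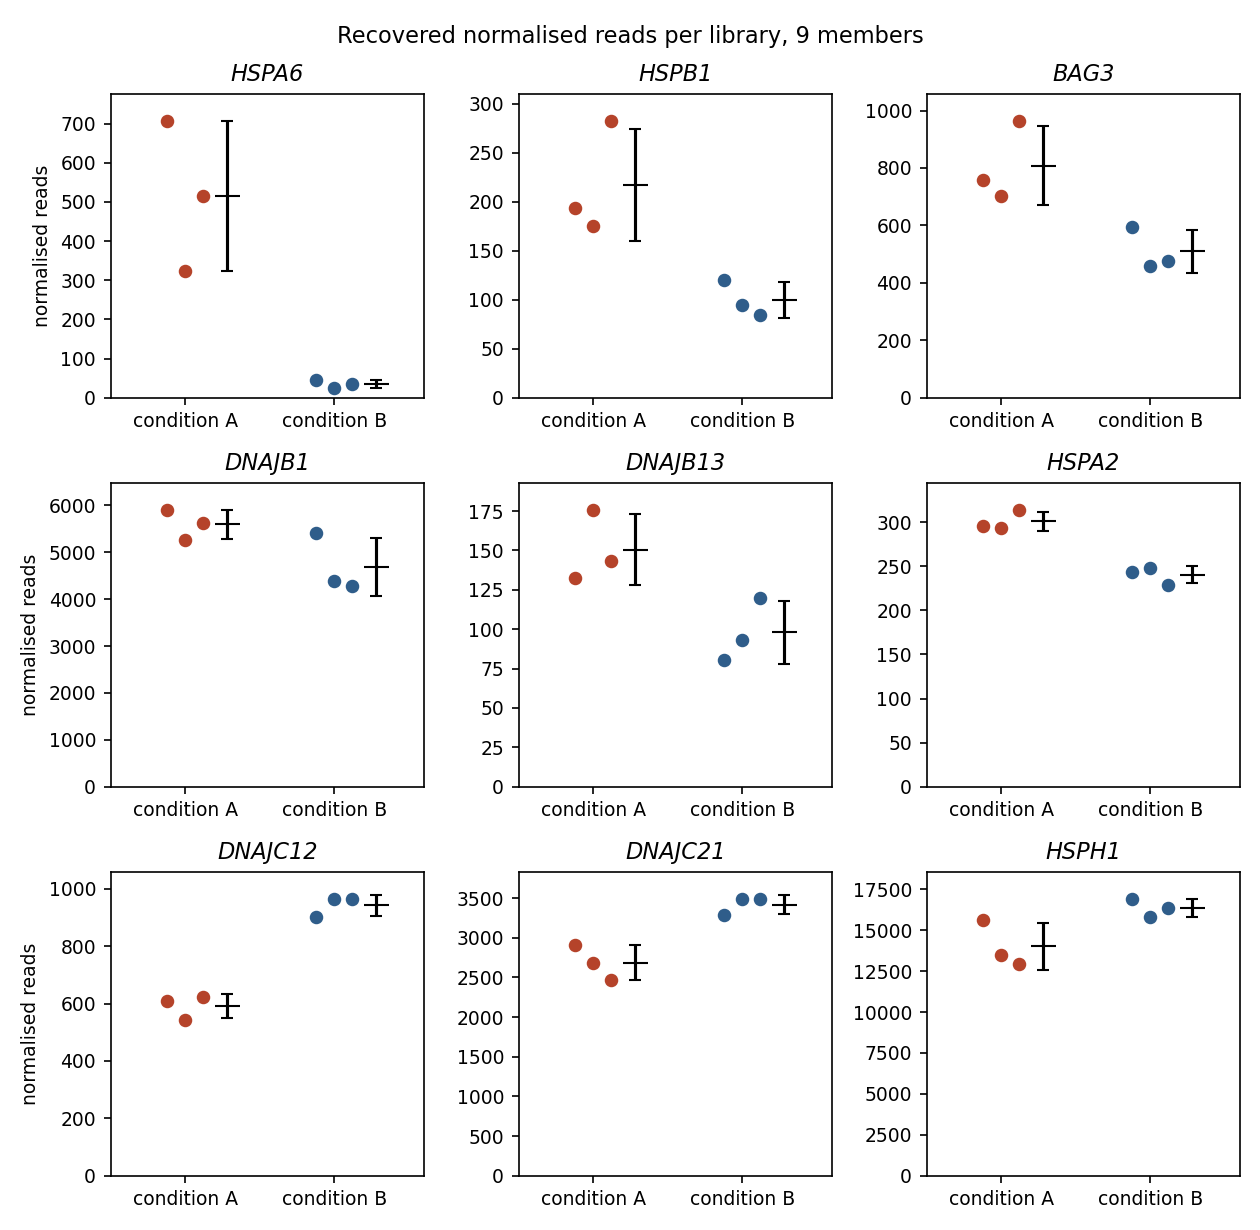
Normalised reads recovered in each library (points) for 9 members, with mean and SD (n = 3 each), condition A left of condition B and each axis starting at 0. The conditions do not overlap in any panel but that of DNAJB1, and the 9 are chosen members. Of the 63 members with recovered libraries and a mean of at least 50, 15.9% had condition A wholly above and 14.3% wholly below. Of all 13221 such genes, 16.6% and 18.2% did.

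None of the 4 DNAJA and 11 DNAJB genes was called in the authors' deposited table. DNAJA1, a main cytosolic partner of HSPA8, had 16504 normalised reads in condition A, against 16647 in condition B, and by the authors' deposited table the log2 ratio was -0.01. DNAJA2, a close relative, had a log2 ratio of -0.09 by the authors' deposited table. DNAJB1, a heat-inducible partner of HSP70, held 5899, 5261 and 5618 in condition A, against 5408, 4394 and 4277 in condition B. Library 1 of condition B lay above library 2 of condition A, and the log2 ratio was 0.25 by the authors' deposited table (DESeq adjusted p = 0.393). The limma fit on all libraries gave 0.26 (adjusted p = 0.124). Leaving out each library in turn gave adjusted p-values from 0.0343 to 0.390 by limma, and of these only the fit without library 1 of condition B called it. DNAJB13, a J protein of the cilium and sperm tail, held 132, 176 and 143 in condition A, against 80.7, 93.3 and 120 in condition B. The groups did not overlap, and the log2 ratio of 0.62 was not called by the authors' deposited table (DESeq adjusted p = 0.0756), while limma put it just inside (adjusted p = 0.0488). DNAJB11, a J protein of the endoplasmic reticulum, had a log2 ratio of 0.06, and DNAJB12, a membrane J protein there, one of -0.04 in the authors' deposited table. DNAJB7 was low, with 15.7 normalised reads in condition A, against 23.1 in condition B by the authors' deposited table.

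DNAJC12 was the only called gene of the 28 DNAJC genes, and the only called member that was lower in condition A. It is a co-chaperone of the aromatic amino acid hydroxylases. DNAJC12 (ENSG00000108176) spans chromosome 10 from 69556877 to 69597769 in the deposited intervals, in build hg19. Its libraries held 610, 543 and 623 normalised reads in condition A, against 901, 964 and 965 in condition B. The libraries agreed closely within each condition and did not overlap. The means were 592 ± 43.0 in condition A, against 943 ± 36.7 in condition B (SD, n = 3 each), and by the authors' deposited table the log2 ratio was -0.67 (DESeq adjusted p = 3.37e-05). The limma fit gave -0.67 with a standard error of 0.092 (adjusted p = 0.00309), and with 1 library left out the ratio was between -0.71 and -0.61.

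The other DNAJC genes were not called in the authors' deposited table. DNAJC21, which acts in maturation of the large ribosomal subunit, held 2913, 2683 and 2469 normalised reads in condition A, against 3283, 3485 and 3488 in condition B. The groups did not overlap, and the log2 ratio was -0.35 by the authors' deposited table (DESeq adjusted p = 0.129), which limma called (adjusted p = 0.0303). DNAJC28 was low, at 27.3, 19.5 and 18.2 in condition A, against 34.8, 39.0 and 30.5 in condition B. DNAJC10, a disulfide reductase of the endoplasmic reticulum, had a log2 ratio of -0.23 by the authors' deposited table (DESeq adjusted p = 0.619). DNAJC3, an inhibitor of the kinase PKR, had 0.04 and DNAJC7, a partner of both HSP70 and HSP90, had 0.08 in the authors' deposited table. The median of the 24 DNAJC genes with a mean of at least 50 was 0.01. DNAJC9 and DNAJC27 have antisense genes in the table, and the sources used here do not say whether strand was counted.

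The cytosolic HSP90 genes HSP90AB1 and HSP90AA1 had the highest levels of the members. HSP90AB1, the constitutive cytosolic HSP90, had 90267 normalised reads in condition A, against 90183 in condition B, and by the authors' deposited table the log2 ratio was 0.0013. HSP90AA1, its inducible form, had 90005 in condition A, against 82996 in condition B, and by the authors' deposited table the log2 ratio was 0.12. HSP90B1, the HSP90 of the endoplasmic reticulum, held 23045, 21018 and 19721 in condition A, against 23866, 24730 and 25681 in condition B. Its groups did not overlap, and the log2 ratio was -0.22 by the authors' deposited table (DESeq adjusted p = 0.637). Set per kb of exon, HSP90AB1 had 30291 normalised reads in condition A, against 30263 in condition B, ahead of HSP90AA1 at 17150 and 15815 and HSPA8 at 16830 and 15790. The length used was that of all annotated exons of a gene merged, 2.98 kb for HSP90AB1 and 5.25 kb for HSP90AA1. The gap between these 2 genes rests largely on it, as their means over both conditions were 90225 and 86500 normalised reads. HSPA6 had 217 per kb in condition A and 14.5 per kb in condition B, so even in condition A its level was a small part of that of HSPA8.

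**Figure D3:**
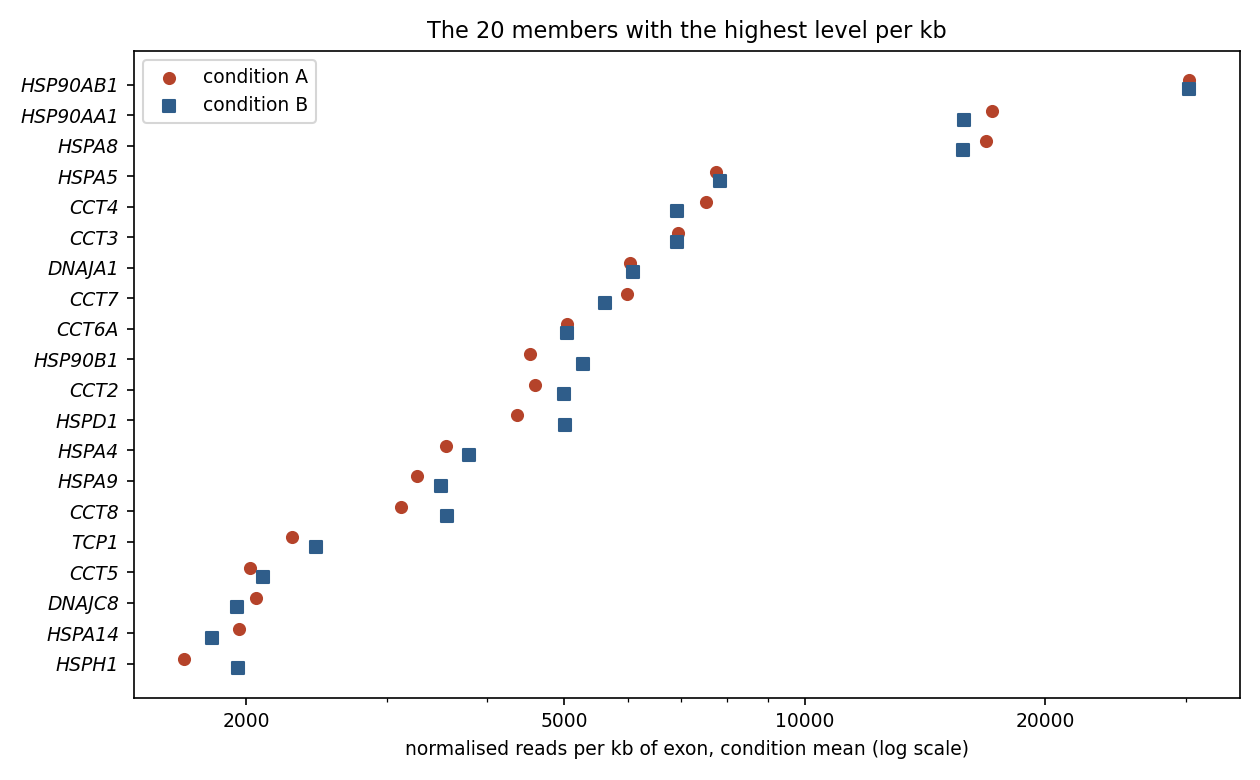
Condition means of normalised reads per kb of exon (all annotated exons merged, log scale) for the 20 members with the highest level, circles for condition A and squares for condition B. HSP90AB1 is highest at 30291 in condition A, against 30263 in condition B, and HSPH1 is the last of them at 1671 and 1950.

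HSPB1 was the only called gene of the 7 small heat shock genes. HSPB1, also named HSP27, holds unfolding proteins and binds actin. HSPB1 (ENSG00000106211) spans chromosome 7 from 75932030 to 75933487 in the deposited intervals, in build hg19. Its libraries held 194, 176 and 282 normalised reads in condition A, against 120, 94.2 and 84.1 in condition B, with no overlap. The means were 217 ± 57.2 in condition A, against 99.5 ± 18.5 in condition B (SD, n = 3 each), a 2.18-fold difference and a log2 ratio of 1.13 by the authors' deposited table (DESeq adjusted p = 0.0431). The limma fit gave 1.10 with a standard error of 0.19 (adjusted p = 0.00896), and with 1 library left out the ratio was between 0.90 and 1.25. HSPB11, a protein of ciliary transport, had a log2 ratio of -0.06 by the authors' deposited table. The other small heat shock genes had means under 10 normalised reads, with 2 reads of HSPB2 in condition A and 1 read of HSPB8 in condition B over all libraries.

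No chaperonin gene was called. The 8 CCT and TCP1 genes with a mean of at least 50 had log2 ratios from -0.19 to 0.12, with a median of -0.03. CCT3, a ring subunit, had 27887 normalised reads in condition A, against 27828 in condition B by the authors' deposited table. CCT8, another subunit, held 11396, 10530 and 9423 in condition A, against 12072, 11919 and 11748 in condition B. Its groups did not overlap, and by the authors' deposited table the log2 ratio was -0.19 (DESeq adjusted p = 0.827). HSPD1, the mitochondrial chaperonin, held 21136, 17828 and 16532 in condition A, against 20613, 21408 and 21699 in condition B. Library 1 of condition A lay among those of condition B, and the log2 ratio was -0.20 by the authors' deposited table (DESeq adjusted p = 0.806). The table holds 81 pseudogene rows of these families, none of them called, so the levels of HSPD1, HSPE1, HSPA8 and HSP90AB1 may lack or share reads.

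Grouped by compartment, 8 listed genes of the endoplasmic reticulum had a median log2 ratio of -0.15, with 2 above 0 and 6 below 0. The 6 listed mitochondrial genes (DNAJA3, DNAJC15, DNAJC19, HSPA9, HSPD1, HSPE1) had a median of -0.15, with 1 above 0 and 5 below 0. These lists are not complete. In the authors' deposited table, DNAJB12 and DNAJB14, left out of the first list, had log2 ratios of -0.04 and -0.24. DNAJC11 and DNAJC30, left out of the second, had 0.15 and 0.16. No gene of either group was called in the authors' deposited table. HSPA13, a microsomal HSP70, held 2552, 2000 and 1361 normalised reads in condition A, against 1972, 2763 and 2752 in condition B. These libraries overlapped and varied more within condition A than most members did: the median coefficient of variation was 7.88% for condition A, against 6.28% for condition B.

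Of the 63 members with recovered libraries and a mean of at least 50, 10 had every library of condition A above those of condition B, and 9 had every one below. These are 15.9% and 14.3%, against 16.6% and 18.2% of all 13221 such genes. The SD of the log2 difference per gene was 0.33 between libraries 1 and 3 of condition A and 0.14 between libraries 2 and 3 of condition B. Library 3 of condition A was the lowest of its condition for 35 of the 63 members, 55.6%, against 42.9% of all genes. Its part in the members' ratios below 0 was not tested.

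**Figure D4:**
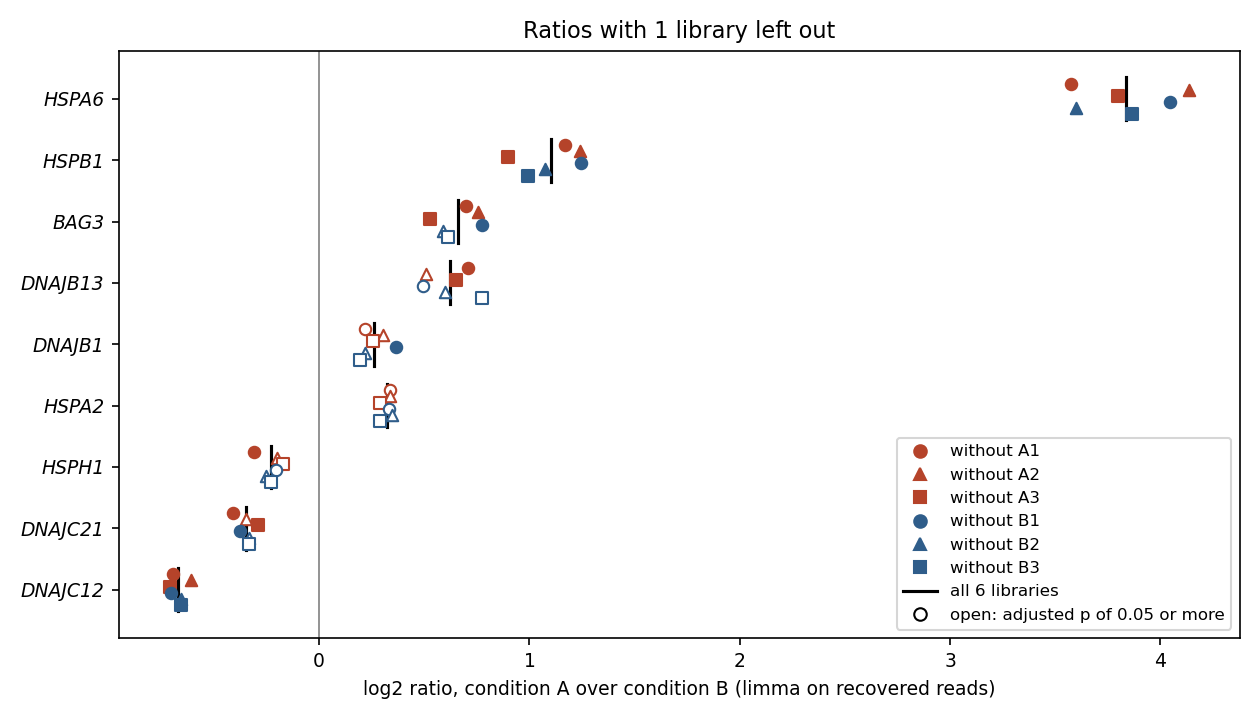
Log2 ratio of condition A over condition B from limma on recovered reads with each library left out in turn, black lines for all 6 libraries, open symbols for an adjusted p of 0.05 or more. HSPA6 stays between 3.57 and 4.14, HSPB1 between 0.90 and 1.25 and DNAJC12 between -0.71 and -0.61, while HSPH1 is filled only without library 1 of condition A.

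Listed genes of the pathway were counted in the same way. The shares over all genes include many genes with few reads, while nearly all listed genes had a mean of at least 50. A list set up for heat-inducible genes held 13 members: HSPA6, HSPA8, HSPH1, DNAJA1, DNAJB1, DNAJB4, HSPB1, HSPD1, HSPE1, HSP90AA1, HSP90AB1, HSPA4L and BAG3. It included HSPA8 and HSP90AB1, described above as constitutive, while HSPA1A and HSPA1B were not analysed here. The calls among the 13 were HSPA6 and HSPB1, already described, so 2 were higher and 0 were lower, against 0.966% and 1.57% of all genes in the authors' deposited table. The 13 log2 ratios had a median of 0.0013, which is the value of HSP90AB1. Among 35 co-chaperones and HSF1 targets outside the members, 1 was higher and 1 was lower, against the same 0.966% and 1.57% of all genes in the authors' deposited table. FKBP5, an immunophilin that binds HSP90, had 7910 normalised reads in condition A, against 6049 in condition B, and by the authors' deposited table the log2 ratio was 0.39 (DESeq adjusted p = 0.0286). AHSA2, a gene related to the HSP90 activator AHSA1, had 689 in condition A, against 920 in condition B, and by the authors' deposited table the log2 ratio was -0.42 (DESeq adjusted p = 0.0474). The median of the 33 listed genes with a mean of at least 50 was 0.0024. Prefoldin hands actin and tubulin to CCT. Of the 8 listed genes of prefoldin and chaperonin assembly, 0 were called in the authors' deposited table, and by limma 0 were called as well. The 8 genes had a median log2 ratio of -0.19, with 2 above 0 and 6 below 0. At an unadjusted p under 0.05, 1 of the 8 was higher and 0 were lower, against 1474 and 1835 of all 34675 genes.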

How the data were processed

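RNA from U2932 cells was sequenced in 3 samples per group. The submitters' processing notes name STAR, HTSeq 0.5.4p5, DESeq 1.14.0 and build hg19, and give them no role. The deposited table holds, per the file headers, a mean for each condition, their ratio (fold), its log2 value and p-values before and after adjustment. The authors' column names are those that DESeq 1.14.0 writes, whose means are counts divided by size factors. Recomputed from the values, the log2 ratio is B over A and the adjustment is Benjamini-Hochberg over all 34675 rows. The sign of the deposited log2 was turned. A deposited file of hg19 intervals holds a score per gene whose making is not given, per the file headers, and only its intervals were used.

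The table has no column per sample. Whole reads per library were recovered by searching integers that give each condition mean up to 30000, with exactly 1 solution for 34331 genes in both conditions and 76 of 83 members. Above a condition mean of 1500, each library was searched only within a range around that mean. The range was 0.3 to 2 times the mean up to 4000, 0.7 to 1.4 times up to 15000, and 0.8 to 1.25 times beyond. For these genes a solution outside the range would be missed. Recovered reads cover 72.3% (condition A) and 84.6% (condition B) of all normalised reads. On simulated counts, 99.1% were recovered right in condition A and 99.8% in condition B. The simulation used a fixed spread between libraries, so it says little of abundant genes whose libraries lie outside the range. limma 3.58.1 (R 4.3.3) was run with a trend on log2(normalised reads + 1) over 17269 genes whose mean reached 10, with p-values adjusted over them. Data were simulated for this comparison over 17269 genes, with changes planted only in genes with a mean of at least 50. The fit recovered 90% of 2-fold and 53% of 1.5-fold changes and made 7 false calls. Genes with lower means are not covered by these shares. Python 3.11.15 was used otherwise.

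The authors' DESeq adjusted p at 0.05 made the calls. Genes named are called members, those with the smallest p or highest mean in each role, the 6 with the largest log2 ratio in size at a mean of at least 50, and HSP90AA1, HSP90AB1, HSF1 and HSF2 by name. HSPA13 and the library patterns were added after their values were seen. Members and lists were chosen with earlier results of these data known. Alternatives were another threshold, adjustment over expressed genes, scaling to equal sums, a pseudocount of 10, limma and leaving out each library. Promoter windows come from RefSeq. The result of a marker gene is not reported here.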

Additional observations from a re-analysis of the deposited data

How the results depend on the processing

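Members called higher in condition A numbered 4 in place of 2 at an adjusted p of 0.1, with p adjusted over genes with a mean of at least 10 or of at least 50, and by limma. BAG3 and DNAJB13 were the ones added by limma. Those called lower numbered 2 in place of 1 by limma, with DNAJC21 added. With 1 library left out, 2 to 4 members were higher and 1 to 6 were lower, the 6 being without library 1 of condition A. Calls over all 17269 genes tested moved as well, from 145 to 1042 higher and from 215 to 1276 lower. The most in each direction were without that same library. The median log2 ratio of the members was -0.081 with both conditions scaled to the same sum, a scaling that moves every ratio by -0.07, and -0.0814 to 0.0179 with 1 library left out. Co-chaperones called higher numbered 2 at an adjusted p of 0.1 and by limma, and those called lower numbered 3 by limma. For the 31 named members, 237 alternative values were computed, of which 226 kept their sign and 11 changed it. The 3 called members kept their sign in each of these, and their call in each limma fit. Equal sums and the pseudocount carried no test. With 1 library left out, the limma adjusted p of HSPB1 reached 0.0490. Of the values with a test, 17 became called. The sign changed for 7 members, none called, with reported log2 ratios within 0.062 of 0. With 1 library left out, the limma log2 ratio ran from -0.146 to 0.031 for BAG5, from -0.090 to 0.050 for DNAJA1, from -0.134 to 0.029 for DNAJB12 and from -0.055 to 0.126 for DNAJC3. With equal sums, the log2 ratio was -0.06 for HSP90AB1, -0.06 for CCT3, -0.0044 for DNAJB11 and -0.03 for DNAJC3. The log2 ratio of HSPA6 was 3.56 with 10 added to each mean. The causes were not tested. No paired analysis was possible because the recovered libraries carry no replicate numbers of the labels. The members without values per library, 7 of 83, could not enter limma, and depth limits the 13 members with a mean under 50.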
